A study of Sus scrofa with 29 samples.

Results

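Solute carrier (SLC) genes encode membrane proteins that move sugars, amino acids, ions, nucleosides, vitamins and metabolites across the plasma membrane or the membranes of organelles. Every probe set with a single gene symbol of the SLC form (SLC, a family number and a letter) was taken, and a gene with several probe sets was represented by the one with the highest mean over all arrays. This gave 120 genes, from 176 probe sets, of the 6765 genes with 1 symbol on the array. Of these genes 81 had 1 probe set and 39 had several. By substrate, 15 were sugar transporters, 21 carried amino acids, peptides or related amines, and 26 carried inorganic ions and metals. Another 22 were classed as mitochondrial, by gene family or name. A further 2 carried monocarboxylates, 14 carried nucleosides, nucleotide sugars or acetyl-CoA, and 17 carried organic ions, vitamins, choline or fatty acids. The last 3 (SLC9A3R1, SLC9A3R2 and SLC2A4RG) are regulators named after a carrier and transport nothing themselves.

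RNA was measured on single-colour porcine oligonucleotide arrays in scrapings of the luminal surface of 2 arteries from healthy pigs. The brachial artery supplies the foreleg, and the internal mammary artery, called mammary here, runs along the inner chest wall. Exercised pigs ran on a treadmill in a programme of 16 to 20 weeks, with 5 sessions a week that had reached 85 min by week 10, and were killed about 24 h after the last bout, whereas sedentary pigs stayed in their enclosures. The groups were brachial artery of exercised pigs (n = 7), brachial artery of sedentary pigs (n = 7), mammary artery of exercised pigs (n = 8) and mammary artery of sedentary pigs (n = 7), from 15 pigs, of which 14 gave both arteries. The series' design text gives the pig with a single artery a brachial array, whereas the sample labels give it a mammary array, and the labels were followed. The labels name no genetic modification, and give no strain, sex or age. The source field of the 8 exercised mammary samples reads sedentary, against their titles and treatment tags, which were followed.

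Endothelial cells import glucose by facilitated diffusion, take up arginine, the substrate of nitric oxide synthase, through cationic amino acid carriers, and clear adenosine from the blood through nucleoside carriers. Many amino acid carriers are pairs of a light chain that transports and a heavy chain, SLC3A1 or SLC3A2, that brings it to the membrane. Mitochondrial carriers of the SLC25 family pass adenine nucleotides, phosphate, citrate and acylcarnitines through the inner membrane.

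The values are log2 intensities of single probe sets, so a level is compared between groups and never between genes. Taking all 23999 probe sets in order of mean level, 32 SLC genes lay in the lowest tertile (below 5.96), 45 in the middle tertile and 43 in the highest tertile (above 8.48). These values have no sequencing depth, and precision depends on how many arrays each group holds and on how far they spread. The 13 measured endothelial markers of 15 listed included 10 in the highest tertile, as did 10 of 12 measured smooth muscle markers (15 listed). Of 10 measured macrophage markers (13 listed) 6 lay in the highest tertile, and of 7 measured T and B cell markers (10 listed) none did. Changes are fitted log2 differences ± SE from limma with pig as a random block, and adjusted p values are Benjamini-Hochberg over all probe sets, with a threshold of 0.05. The replicates are pigs, named in the labels. In such bulk samples, fewer cells of a type and less RNA per cell cannot be told apart.

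With training, few SLC genes changed. In the brachial artery 2 of 120 passed, SLC7A1 and SLC12A4, both lower in exercised pigs, and none was higher. Of all probe sets 1.63% passed there (1.02% higher and 0.613% lower), so the share among SLC genes was near the background. In the mammary artery none of 120 passed by limma, against 0.596% of all probe sets. There 22 of the 120, and 2945 of all 23999 probe sets, had an unadjusted p under 0.05. Averaged over both arteries, 7 passed (5 higher and 2 lower), against 4.68% of all probe sets (2.88% higher and 1.8% lower). The training change of the 120 genes had a median of 0.07 in the brachial and 0.05 in the mammary artery on the log2 scale, against 0.01 for all probe sets in each artery. It was positive for 85 genes (70.8%) in the brachial and 73 (60.8%) in the mammary artery, against 53.4% and 52% of all probe sets.

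By class, the brachial training change was positive for 12 of 15 sugar genes, 14 of 21 amino acid genes, 19 of 26 ion genes and 16 of 22 mitochondrial genes, and the mammary one for 11, 9, 17 and 15 of them. Of 14 nucleoside and nucleotide sugar genes 9 had a positive change in the brachial and 7 in the mammary artery, and of 17 organic ion genes 12 did in each. These signs include genes that did not pass. Class medians ran from -0.02 for amino acid genes to 0.10 for organic ion genes in the mammary artery, with the other medians of these 6 classes between those values.

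SLC7A1, the main arginine and lysine importer of endothelial cells, had the smallest averaged adjusted p of the members. In the brachial artery its levels had a minimum of 8.22, a median of 8.37 and a maximum of 8.81 in exercised pigs, against 8.84, 8.97 and 9.74 in sedentary pigs. The groups did not overlap, and all 7 exercised pigs lay below the sedentary mean. Such a gap was seen for 0.604% of all probe sets in that artery. The change was -0.65 ± 0.16 on the log2 scale, a 1.57-fold lower level (adjusted p = 0.0309, limma), and the call was lost in 8 of 15 fits that left out 1 pig, with a highest adjusted p of 0.0731. In the mammary artery SLC7A1 had a minimum of 8.13, a median of 8.59 and a maximum of 8.92 in exercised pigs, against 8.50, 8.93 and 9.73 in sedentary pigs. Here the groups overlapped, although all 8 exercised pigs lay below the sedentary mean, and the change of -0.48 ± 0.15 did not pass (adjusted p = 0.146). Averaged over the arteries SLC7A1 fell by 0.56 ± 0.12 (adjusted p = 0.0078), and it passed this test in 15 of 15 fits that left out 1 pig. It did not pass in a limma fit without a block to each pig's mean over both arteries, in the 14 paired pigs (-0.56 ± 0.15, adjusted p = 0.0842). The averaged change was -0.80 in the 8 pigs with earlier dates in the labels, which do not say what the date marks, and -0.31 in the 7 with later dates (adjusted p = 0.0558 and 0.461).

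Macrophage markers moved in the same comparison. Their mean, centred on all arrays, was -0.345 ± 0.186 in exercised and 0.130 ± 0.320 in sedentary brachial arteries (SD, n = 7 each), lower in 7 of 7 exercised pigs than the sedentary mean (exact permutation test, two-sided, p = 0.00408, adjusted p = 0.0381 over 24 tests). The centred means of single arrays ran from -0.55 to -0.09 in exercised and from -0.24 to 0.74 in sedentary pigs. Of the 10 measured markers 9 had a negative brachial change, and none lay in the lowest tertile of levels. With this mean as a covariate SLC7A1 differed by -0.48 ± 0.14 averaged over the arteries (adjusted p = 0.0664) and by -0.50 ± 0.19 in the brachial artery (adjusted p = 0.341), so that neither call was kept. The slope of SLC7A1 on the macrophage mean was 0.32 ± 0.24 (adjusted p = 0.833). The part of macrophage RNA in the change was not tested.

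SLC12A4, a potassium and chloride cotransporter that lets cells lose volume, was the other gene to pass in the brachial artery. Its levels had a minimum of 8.22, a median of 8.72 and a maximum of 8.83 in exercised pigs, against 8.79, 8.93 and 9.11 in sedentary pigs. The exercised pigs 15_2 and 10_5, at 8.22 and 8.25, lay well below the other 5, and the groups overlapped slightly. The change was -0.32 ± 0.08, or 1.24-fold lower (adjusted p = 0.0444), and it was lost in 11 of 15 fits that left out 1 pig, with a highest adjusted p of 0.115. In the mammary artery the change was -0.10 ± 0.08 (adjusted p = 0.679).

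**Figure D1:**
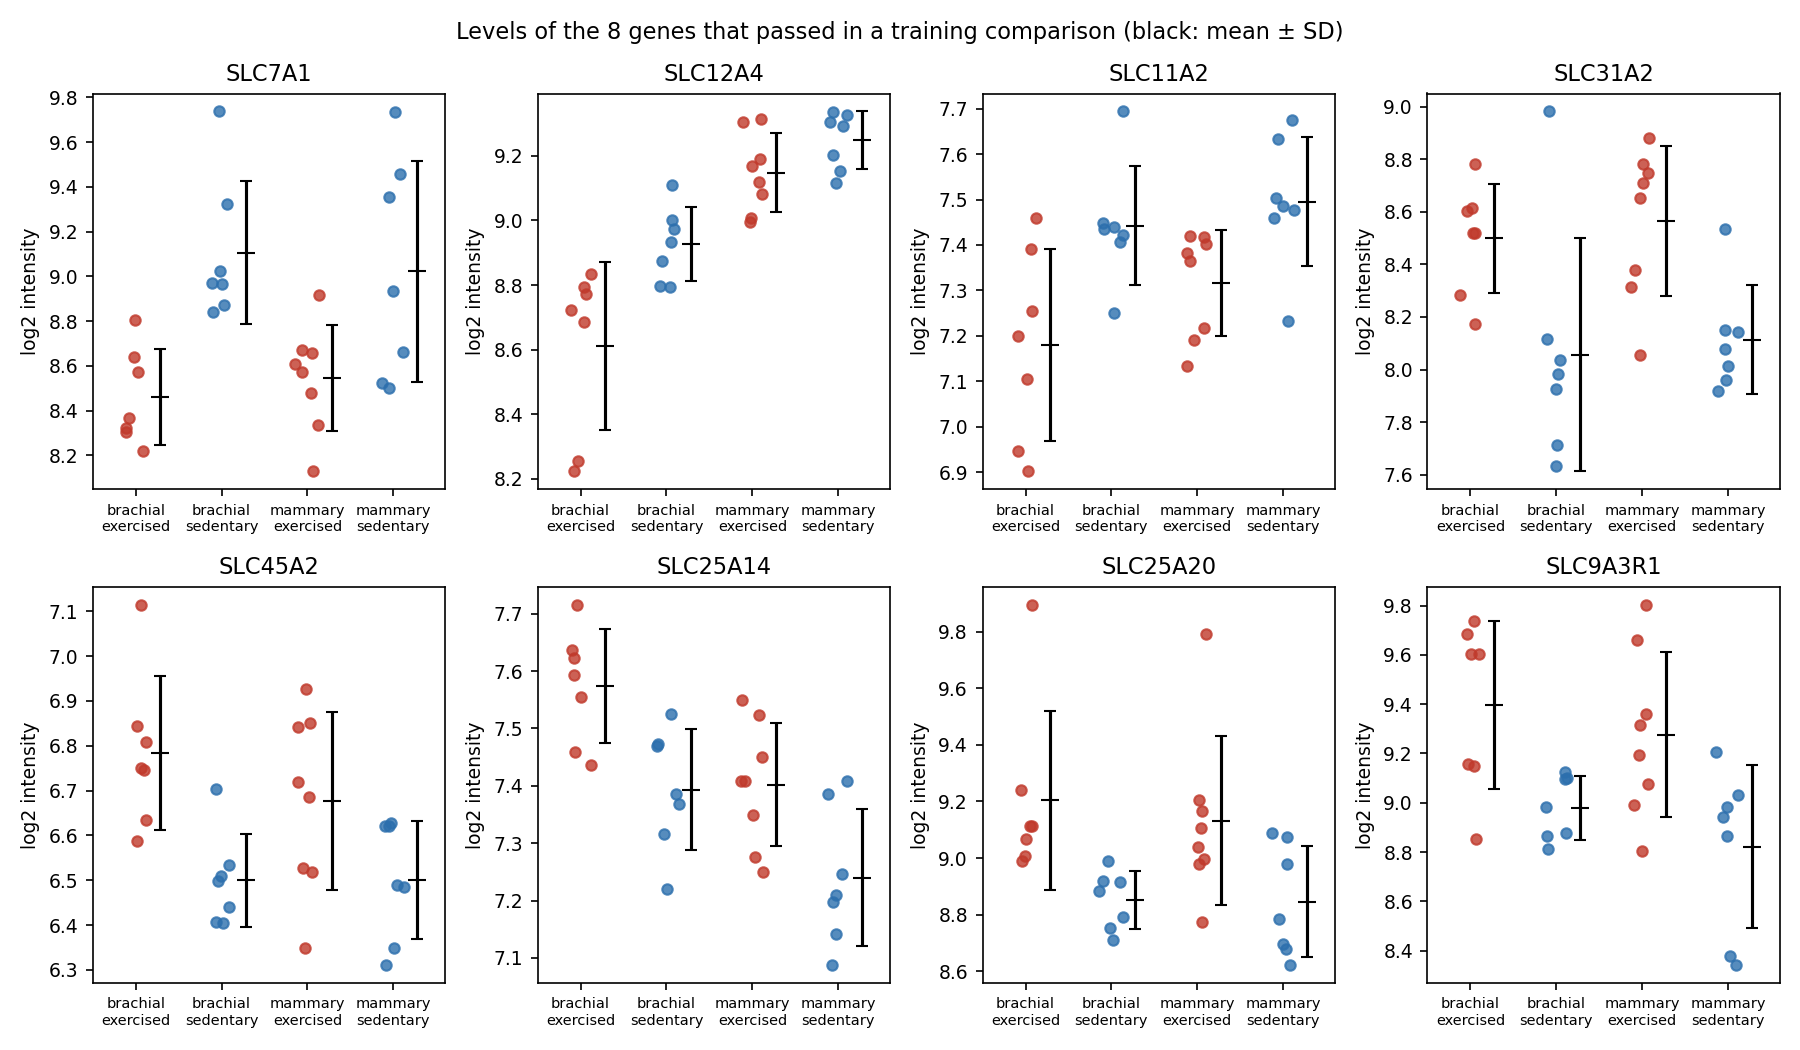
Log2 intensity (vertical axes) of the 8 SLC genes that passed in the brachial artery or averaged over both arteries, for each array of the 4 groups (horizontal axes), with exercised in red, sedentary in blue and the mean ± SD in black. SLC7A1 sits at 8.22 to 8.81 in exercised and 8.84 to 9.74 in sedentary brachial arteries, and a single pig stands high in SLC25A20 and another in SLC31A2.

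Among the other metal carriers, SLC31A2 and SLC11A2 passed in the average over both arteries. SLC31A2, a copper transporter of endosomes and lysosomes, had a minimum of 8.17, a median of 8.52 and a maximum of 8.78 in exercised brachial arteries, against 7.63, 7.98 and 8.98 in sedentary ones. In mammary arteries the same values were 8.05, 8.68 and 8.88 in exercised pigs, against 7.92, 8.08 and 8.54 in sedentary pigs. The groups overlapped in both arteries, with the sedentary maximum set by the same pig each time. Averaged, SLC31A2 rose by 0.44 ± 0.11, or 1.36-fold (adjusted p = 0.0228), and its second probe set also passed, at 0.34 ± 0.10 (adjusted p = 0.0462). It was the 1 gene of the 7 to pass with the macrophage mean as a covariate (0.57 ± 0.12, adjusted p = 0.0126).

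SLC11A2, which imports ferrous iron, had a minimum of 6.90, a median of 7.20 and a maximum of 7.46 in exercised brachial arteries, against 7.25, 7.44 and 7.69 in sedentary ones. All 8 exercised mammary arteries, at 7.13 to 7.42, lay below the sedentary mammary mean of 7.50. Averaged, it fell by 0.22 ± 0.06 (adjusted p = 0.0314). It was -0.40 ± 0.08 in the 8 earlier-dated pigs and -0.04 ± 0.08 in the 7 later-dated ones. The dimmest of its 4 probe sets gave 0.09 ± 0.06, with the opposite sign.

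Of the mitochondrial carriers, SLC25A20 and SLC25A14 rose in the average. SLC25A20 exchanges acylcarnitines for carnitine and so brings fatty acids to oxidation. In the brachial artery it had a minimum of 8.99, a median of 9.11 and a maximum of 9.89 in exercised pigs, against 8.71, 8.88 and 8.99 in sedentary pigs, with no overlap before rounding. In the mammary artery it had a minimum of 8.77, a median of 9.07 and a maximum of 9.79 in exercised pigs, against 8.62, 8.78 and 9.09 in sedentary pigs. Pig 12_5 held the maximum in both arteries. SLC25A20 rose by 0.32 ± 0.09, or 1.25-fold (adjusted p = 0.0412), and it passed at 0.22 ± 0.06 without pig 12_5 (adjusted p = 0.0429). The call was lost in 9 of the 15 fits that left out 1 pig.

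SLC25A14, a carrier related to the uncoupling proteins, had a minimum of 7.44, a median of 7.59 and a maximum of 7.72 in exercised brachial arteries, against 7.22, 7.39 and 7.53 in sedentary ones. Every exercised pig lay above the sedentary mean in each artery, and the averaged rise was 0.17 ± 0.05 (adjusted p = 0.0347). Its lowest probe set gave 0.20 ± 0.09 and did not pass (adjusted p = 0.231). SLC25A1, the citrate exporter, had an averaged change of 0.27 ± 0.08 that did not pass (adjusted p = 0.0579). The ADP/ATP carriers SLC25A4 and SLC25A5 had -0.06 ± 0.12 and -0.22 ± 0.11, which did not pass. In all, 2 of the 22 mitochondrial genes passed, both higher, against 4.68% of all probe sets (2.88% higher), and the class median was 0.07, against 0.01 for all probe sets.

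SLC45A2, a proton-coupled sugar carrier best known from pigment cells, was the 1 sugar gene of 15 to pass. Its levels had a minimum of 6.59, a median of 6.75 and a maximum of 7.11 in exercised brachial arteries, against 6.40, 6.50 and 6.70 in sedentary ones. The averaged rise was 0.23 ± 0.07 (adjusted p = 0.0367). The glucose carriers did not pass. SLC2A1, the basal glucose importer, had an averaged change of -0.39 ± 0.22 (adjusted p = 0.354). SLC2A3, a high-affinity glucose importer, had -0.02 ± 0.21, and SLC2A4, the carrier that insulin brings to the surface, had 0.06 ± 0.05.

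Among the regulators SLC9A3R1 passed. It encodes a scaffold that ties sodium and proton exchangers and other membrane proteins to the cytoskeleton. In the brachial artery its minimum was 8.85, its median 9.60 and its maximum 9.74 in exercised pigs, against 8.81, 8.98 and 9.13 in sedentary pigs. The mammary values were 8.81, 9.26 and 9.80 in exercised pigs, against 8.34, 8.94 and 9.21 in sedentary pigs. The groups overlapped in both arteries, and the averaged rise was 0.45 ± 0.12, or 1.36-fold (adjusted p = 0.0283).

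Leaving out 1 pig at a time ended the averaged call in 8 of 15 fits for SLC25A14, 8 for SLC11A2, 9 for SLC45A2, 5 for SLC31A2 and 5 for SLC9A3R1. In the mammary artery the 28S/18S ratio of the RNA was 1.33 ± 0.08 in exercised and 1.19 ± 0.08 in sedentary pigs (SD, n = 8 and 7, exact permutation test, adjusted p = 0.0381). When the 28S/18S ratio was added to the fit SLC25A14 and SLC11A2 did not pass (adjusted p = 0.0521 and 0.0571). With the smooth muscle marker mean added in its place SLC25A20, SLC45A2 and SLC25A14 did not pass (adjusted p = 0.0567, 0.0520 and 0.0610).

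Taken within the date ranges, the 5 genes that rose had the same sign in both and none passed in either. Both ranges are parts of the pigs in which these genes were called, so the shared sign is no independent check. In the earlier-dated and the later-dated pigs the averaged changes were 0.37 and 0.55 for SLC31A2, 0.24 and 0.22 for SLC45A2, and 0.14 and 0.21 for SLC25A14. They were 0.26 and 0.36 for SLC25A20 and 0.52 and 0.39 for SLC9A3R1. The brachial change of SLC12A4 was -0.36 in the earlier-dated and -0.27 in the later-dated pigs, passing in neither.

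Of the 12 measured members of a list of 22 transporters used by endothelium, SLC7A1 and SLC25A20 passed with training, as given above, and the other 10 did not. The shares of all probe sets that passed were 1.63% in the brachial artery and 4.68% in the average. SLC3A2, the heavy chain of large neutral amino acid exchangers, had changes of 0.03 ± 0.15 in the brachial and -0.11 ± 0.15 in the mammary artery. SLC1A5, the glutamine importer, had -0.06 ± 0.10 and 0.17 ± 0.09, and SLC29A1, the adenosine carrier, had -0.09 ± 0.13 and 0.01 ± 0.13. SLC39A14, an importer of zinc and iron, had 0.12 ± 0.14 and 0.01 ± 0.13. SLC8A1, which trades sodium for calcium, had 0.09 ± 0.13 in the brachial and 0.40 ± 0.13 in the mammary artery, where its adjusted p was 0.150.

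No SLC gene passed in the test of whether training acted differently in the arteries, nor did any probe set by limma (0%), while 6 SLC genes and 1035 probe sets had an unadjusted p under 0.05. The smallest p among SLC genes belonged to SLC23A2, which imports vitamin C. Its levels had a minimum of 4.01, a median of 4.48 and a maximum of 4.54 in exercised brachial arteries, against 4.05, 4.48 and 4.76 in sedentary ones. In mammary arteries they were 4.61, 4.72 and 5.04 in exercised pigs, against 4.18, 4.34 and 4.81 in sedentary pigs. The difference of the changes, brachial minus mammary, was -0.47 ± 0.13 (unadjusted p = 0.00138, adjusted p = 0.793, limma). SLC11A1, a metal carrier of the phagosome of macrophages, differed by -0.87 ± 0.29 (adjusted p = 0.922), with a brachial change of -0.68 ± 0.24 and a mammary one of 0.20 ± 0.23.

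SLC6A4, the serotonin transporter, differed by 0.71 ± 0.24 (adjusted p = 0.922). Its levels in sedentary mammary arteries fell into a low and a high set. Pigs 11_1, 13_2 and 15_1 had 6.99, 7.13 and 7.03, and the other 4 had 5.48 to 5.88. Exercised mammary arteries lay at 5.36 to 5.80, and brachial arteries at 5.74 to 5.97 in exercised and 5.67 to 6.02 in sedentary pigs, so the 3 high pigs were high in 1 artery alone. SLC38A1, a glutamine importer, likewise reached 7.79 in pig 11_1 and 7.46 in pig 15_1 among sedentary mammary arteries, against a highest exercised mammary value of 6.06. Its mammary change of -1.07 ± 0.32 did not pass (adjusted p = 0.112).

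**Figure D2:**
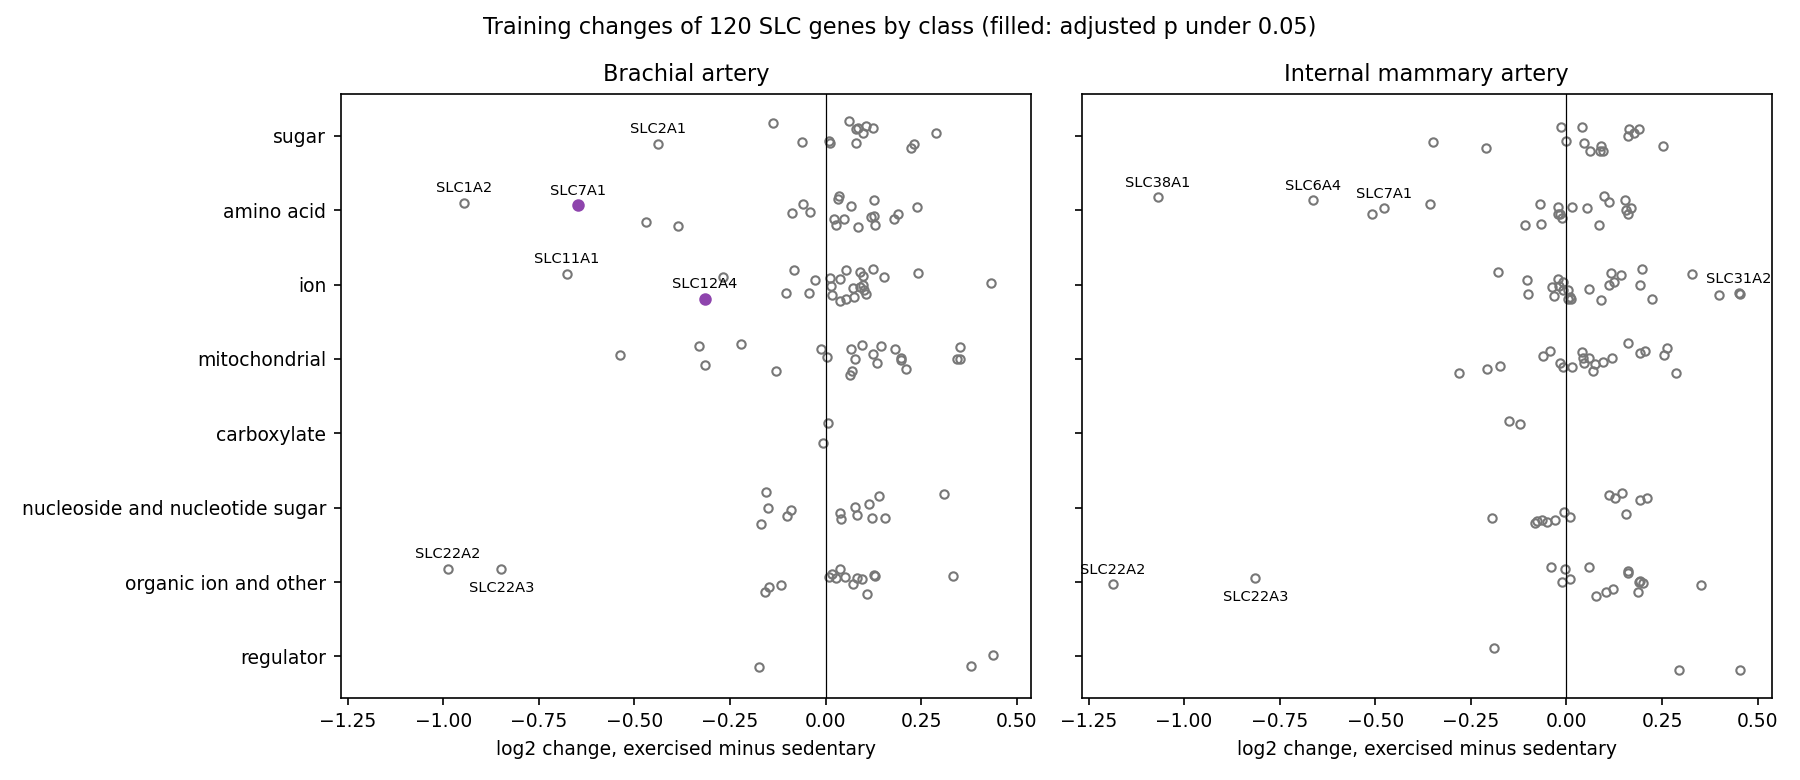
Training change of each of the 120 SLC genes (log2, exercised minus sedentary, horizontal axes) by substrate class (vertical axis) in the brachial artery (left) and the mammary artery (right). Filled points, SLC7A1 and SLC12A4, passed at an adjusted p under 0.05, and the changes farthest from 0, such as those of SLC22A2, SLC22A3, SLC1A2 and SLC38A1, did not.

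The arteries differed far more than the training groups did. Of 120 SLC genes 65 differed between brachial and mammary arteries, 43 higher and 22 lower in the brachial artery. Among all probe sets 54.3% differed, 31.8% higher and 22.5% lower, so the count among SLC genes was near the background. The median difference was 0.08 for SLC genes and 0.03 for all probe sets. By class, 9 amino acid genes were higher and 3 lower, 6 sugar genes higher and 1 lower, 8 ion genes higher and 6 lower, and 9 mitochondrial genes higher and 4 lower. Of nucleoside and nucleotide sugar genes 4 were higher and 6 lower, of organic ion genes 6 were higher and 2 lower, and of the 2 monocarboxylate genes 1 was higher. After each array was centred again on its median the split was 56 higher and 16 lower, in the later-dated pigs alone 31 and 8, and without the dimmest tertile of probe sets 29 and 21. Leaving out that tertile also leaves out its 32 SLC genes. Of all 23999 probe sets 13597 differed after centring and 8596 in the later-dated pigs, against 13026 in the main fit. Without the dimmest tertile 8981 of 15999 differed.

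Dim probe sets leaned towards the brachial artery. In the lowest tertile of all probe sets the median difference was 0.11, with 3593 higher and 774 lower. In the highest tertile it was -0.04, with 1531 higher and 2421 lower. Among SLC genes of the lowest tertile 15 were higher and 2 lower, and of the highest tertile 10 were higher and 11 lower. Such dim members include SLC25A48 (0.50 ± 0.05), SLC1A1 (0.32 ± 0.05), SLC17A1 (0.33 ± 0.06), SLC10A1 (0.31 ± 0.06) and SLC28A1 (0.31 ± 0.04), each in the direction that dim probe sets shared. A second, dimmer probe set of SLC1A1 gave -0.01 ± 0.04. With cyclic loess, which removes such a tilt and was added after the data were seen, 69 SLC genes differed (45 higher, 24 lower), of which 60 were among the 65. Of all 23999 probe sets 11815 differed after cyclic loess, against 13026 before it.

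**Figure D3:**
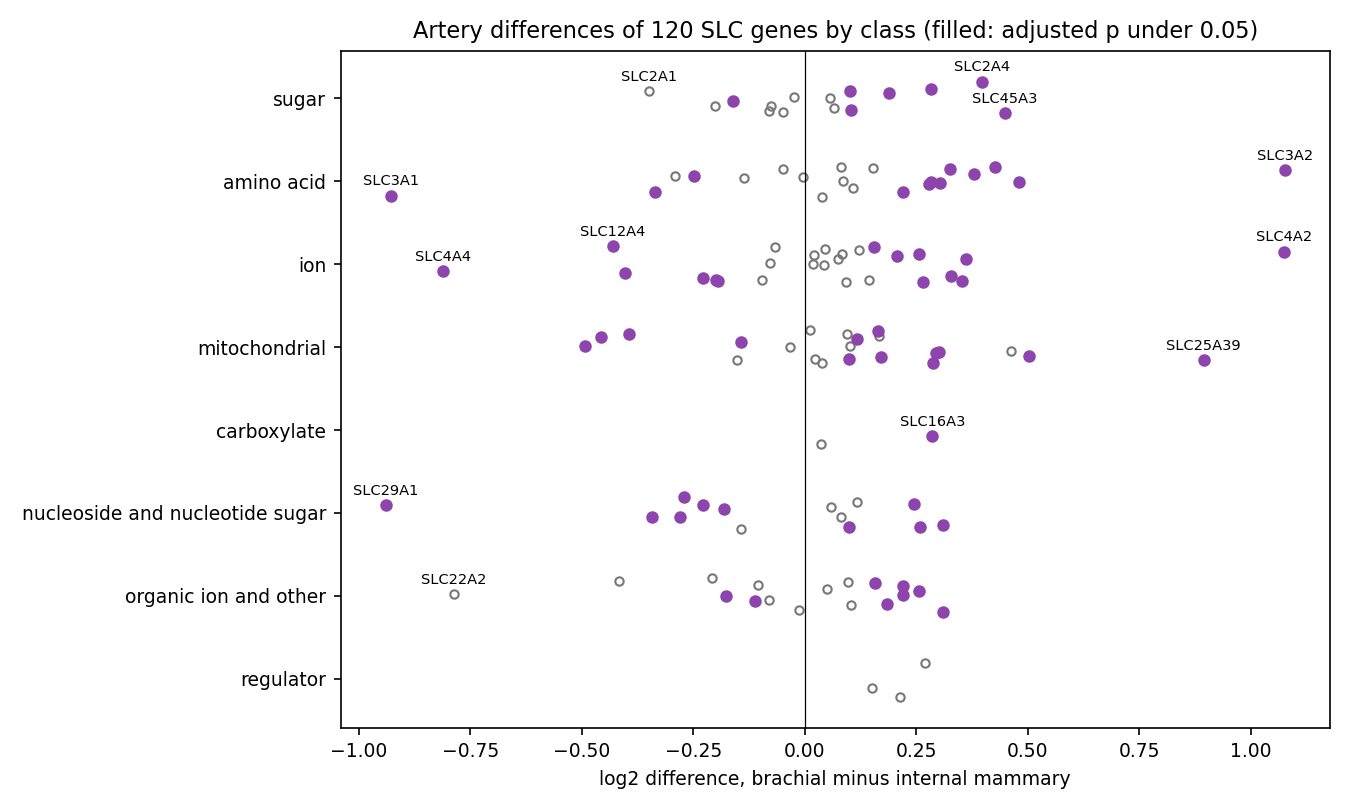
Difference between arteries of each of the 120 SLC genes (log2, brachial minus mammary, horizontal axis) by substrate class (vertical axis). Filled points passed at an adjusted p under 0.05, and SLC3A2, SLC4A2 and SLC25A39 lie farthest to the right, with SLC29A1, SLC3A1 and SLC4A4 farthest to the left among them.

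The 2 heavy chains of the amino acid exchangers differed in opposite directions. SLC3A2, the heavy chain of the widely expressed exchangers of large neutral amino acids and cystine, had a minimum of 9.58, a median of 10.00 and a maximum of 10.42 in brachial arteries, against 8.36, 8.93 and 9.53 in mammary arteries. The arteries did not overlap (3.16% of all probe sets did not), and the brachial value was higher in 14 of 14 pigs. The difference was 1.08 ± 0.09, or 2.11-fold (adjusted p = 1.62e-10). SLC3A1, the heavy chain of the cystine and dibasic amino acid carrier of kidney and gut, had a minimum of 7.80, a median of 8.78 and a maximum of 9.29 in brachial arteries, against 9.21, 9.68 and 10.00 in mammary arteries. It was lower in the brachial artery of 14 of 14 pigs, by -0.93 ± 0.09, or 1.90-fold (adjusted p = 7.26e-10). Its second probe set was lower as well, by -0.43 ± 0.06.

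Of the 21 amino acid genes 9 were higher in the brachial artery, 3 were lower and 9 did not pass. SLC7A7, a light chain that pairs with SLC3A2 and exports cationic amino acids, differed by 0.43 ± 0.07 (higher in 14 of 14 pigs, adjusted p = 4.17e-06). SLC7A9, the light chain of SLC3A1, singled out after its values were seen, was higher by 0.28 ± 0.05, from a probe set in the lowest tertile. SLC15A1, a proton-coupled peptide importer known from gut, was higher by 0.48 ± 0.05 in 14 of 14 pigs. The creatine importer SLC6A8 was higher by 0.38 ± 0.12 in 10 of 14 pigs (adjusted p = 0.0082), but by 0.22 when the 28S/18S ratio was added to the fit (adjusted p = 0.166) and by 0.22 in the later-dated pigs (adjusted p = 0.266). SLC1A5, which imports glutamine, was lower by -0.25 ± 0.06. SLC38A9, a lysosomal arginine sensor, was lower by -0.34 ± 0.06 in 14 of 14 pigs, but its dimmer probe set gave -0.14 ± 0.07 and did not pass (adjusted p = 0.116). SLC7A1, which fell with training, differed between arteries by -0.00 ± 0.10 (adjusted p = 0.980).

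The bicarbonate carriers SLC4A2 and SLC4A4 differed in opposite directions. SLC4A2, which exchanges chloride for bicarbonate and so loads acid into the cell, had a minimum of 8.68, a median of 8.95 and a maximum of 9.35 in brachial arteries, against 7.71, 7.97 and 8.11 in mammary arteries. It was higher in the brachial artery in 14 of 14 pigs without overlap, by 1.07 ± 0.05, or 2.10-fold (adjusted p = 1.44e-15). SLC4A4, which brings in bicarbonate with sodium, had a minimum of 5.74, a median of 6.38 and a maximum of 6.92 in brachial arteries, against 6.37, 7.11 and 7.85 in mammary arteries. It was lower in 14 of 14 pigs, by -0.81 ± 0.11, or 1.76-fold (adjusted p = 6.06e-07). Its second, dimmer probe set gave 0.02 ± 0.05 and did not pass. SLC12A4 was lower by -0.43 ± 0.05 in 14 of 14 pigs (adjusted p = 3.87e-08), so it was lower both in the brachial artery and with training there.

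Of the metal carriers, the zinc importers SLC39A4 and SLC39A5 were higher in the brachial artery by 0.35 ± 0.04 and 0.36 ± 0.05, each in 14 of 14 pigs. SLC11A1 was lower by -0.40 ± 0.14 (adjusted p = 0.0194) in 9 of 14 pigs. The macrophage marker mean was -0.11 ± 0.35 in brachial and 0.09 ± 0.25 in mammary arteries of the 14 paired pigs (exact permutation test, two-sided, p = 0.0342, adjusted p = 0.164), and with it as a covariate SLC11A1 no longer passed (-0.22, adjusted p = 0.216). Nor did it pass after quantile normalization (adjusted p = 0.0514), with the 28S/18S ratio (0.0962), in the earlier-dated pigs (0.232) or in the later-dated pigs (0.0696). Its part in the difference was not tested. The sodium and calcium exchanger SLC8A1 and the zinc and iron importer SLC39A14 did not pass (-0.08 ± 0.08 and 0.12 ± 0.08).

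SLC25A39, which carries glutathione into mitochondria, had the largest difference among the 22 mitochondrial carriers. It had a minimum of 8.85, a median of 9.30 and a maximum of 10.01 in brachial arteries, against 7.94, 8.42 and 9.02 in mammary arteries. The arteries overlapped slightly, with the brachial value higher in 14 of 14 pigs, and the difference was 0.89 ± 0.09, or 1.86-fold (adjusted p = 1.23e-09). SLC25A1 was higher by 0.29 ± 0.07 in 13 of 14 pigs. Lower in the brachial artery were SLC25A36, a carrier of pyrimidine nucleotides, by -0.40 ± 0.06 in 14 of 14 pigs, and SLC25A46, an outer membrane protein of mitochondrial dynamics, by -0.49 ± 0.08 in 13 of 14. SLC25A33, also a pyrimidine nucleotide carrier, was lower by -0.46 ± 0.15, but its dimmer probe set gave 0.13 ± 0.06. The ADP/ATP carriers and SLC25A20 did not pass (SLC25A4 0.02 ± 0.09, SLC25A5 0.17 ± 0.09, SLC25A20 0.04 ± 0.07).

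SLC29A1, the equilibrative carrier that takes up adenosine, had a minimum of 6.77, a median of 7.15 and a maximum of 7.44 in brachial arteries, against 7.48, 8.10 and 8.71 in mammary arteries. The arteries did not overlap, and the brachial value was lower in 14 of 14 pigs, by -0.94 ± 0.08, or 1.92-fold (adjusted p = 1.75e-10). The concentrative nucleoside carrier SLC28A1 was higher by 0.31, from a probe set in the lowest tertile. Of the 14 genes of this class 4 were higher, 6 were lower and 4 did not pass. Those lower include the GDP-fucose carrier SLC35C1 (-0.34 ± 0.08) and the sulfate donor carrier SLC35B3 (-0.27 ± 0.06), each in 12 of 14 pigs.

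SLC2A4 had a minimum of 7.52, a median of 7.90 and a maximum of 8.07 in brachial arteries, against 7.33, 7.49 and 7.55 in mammary arteries, with a slight overlap. Its brachial value was higher in 14 of 14 pigs, by 0.40 ± 0.04 (adjusted p = 2.17e-09). SLC45A3, a relative of SLC45A2, was higher by 0.45 ± 0.05 in 14 of 14 pigs. SLC2A1 and SLC2A3 did not pass (-0.35 ± 0.17, adjusted p = 0.0869, and -0.08 ± 0.17). The 1 monocarboxylate gene to pass, the lactate exporter SLC16A3, singled out after its values were seen, was higher by 0.29 ± 0.06 in 13 of 14 pigs, from a probe set in the lowest tertile.

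**Figure D4:**
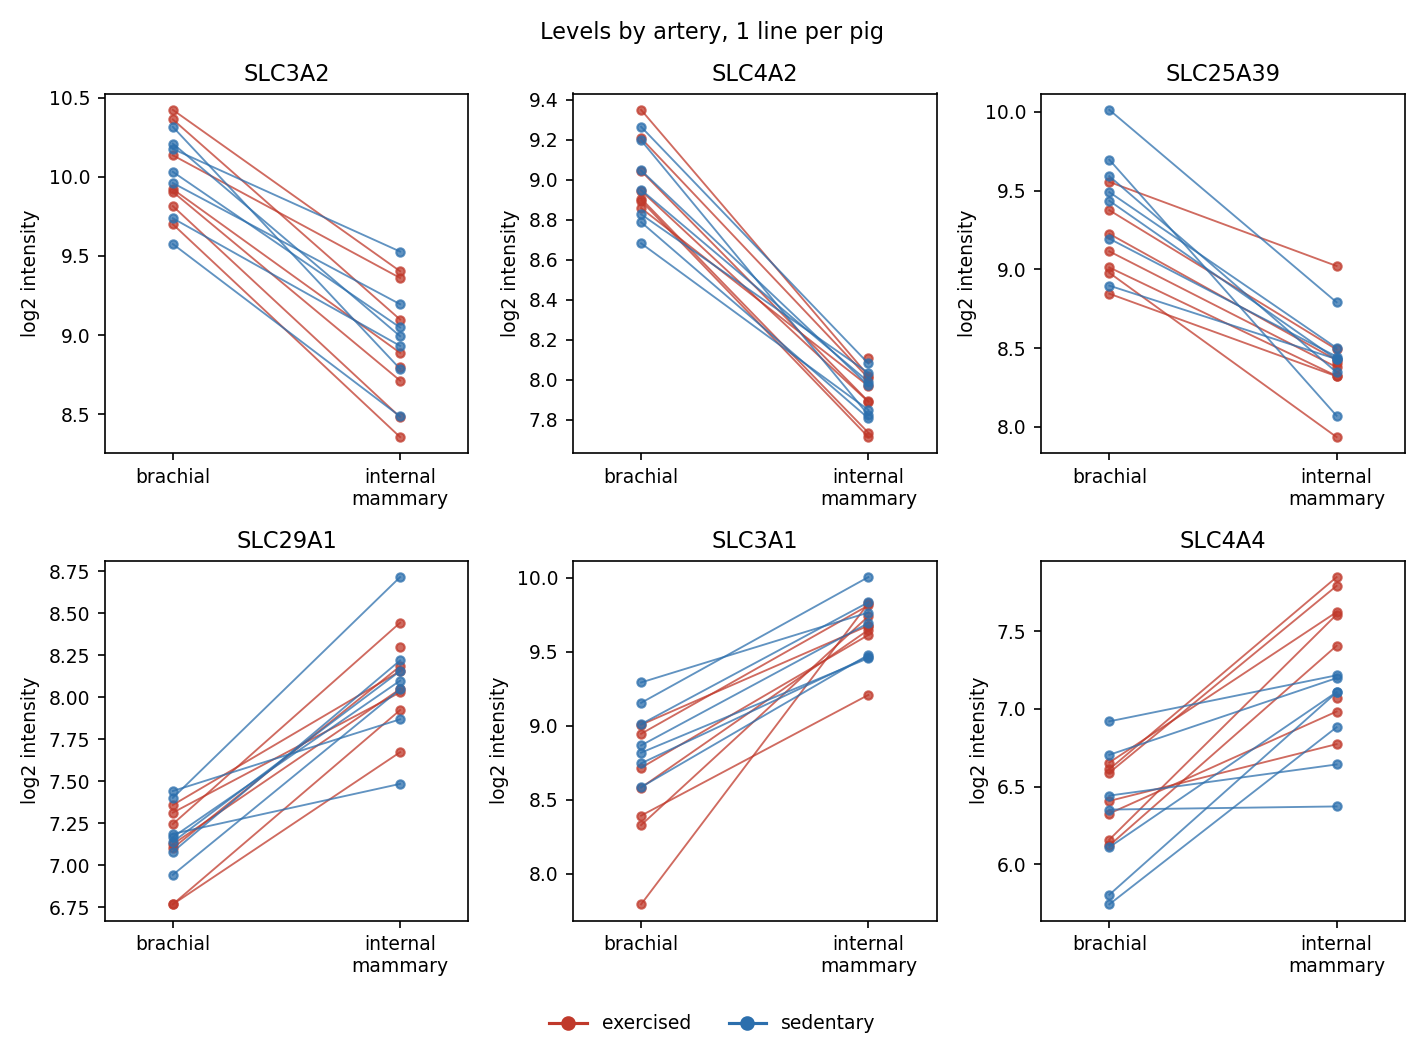
Log2 intensity (vertical axes) of 6 SLC genes in brachial (left) and mammary (right) arteries, with 1 line per pig, exercised in red and sedentary in blue, and a lone point for the pig with a mammary array alone. Every line falls to the right for SLC3A2, SLC4A2 and SLC25A39 and rises to the right for SLC29A1, SLC3A1 and SLC4A4, in 14 of 14 pigs each.

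Some measures of the samples differed between arteries too. The fibroblast marker mean was 0.12 ± 0.20 in brachial and -0.11 ± 0.23 in mammary arteries, and the 28S/18S ratio of the RNA was 1.39 ± 0.18 in brachial and 1.25 ± 0.10 in mammary arteries (14 pairs, exact permutation tests, adjusted p = 0.0381 each). Of the 7 measured fibroblast markers (10 listed) 4 had a positive and 3 a negative difference. Only THY1 passed (1.38 ± 0.20, adjusted p = 1.22e-06, limma), against 54.3% of all probe sets. The other markers lay between -0.14 and 0.26, so the marker mean rests largely on 1 gene. With the ratio as a covariate 59 SLC genes differed between arteries, 54 of them among the 65. Of all 23999 probe sets 11047 differed with it, against 13026 without. The part of fibroblast RNA was not tested.

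The genes listed as transport partners were measured in 19 of 30 cases. BSG, the chaperone of the monocarboxylate carriers, was higher in the brachial artery by 0.77 ± 0.04 (adjusted p = 1.2e-14). Between arteries 7 partners were higher and 2 lower, against 31.8% and 22.5% of all probe sets (54.3% in either direction). The 2 lower ones were ARRDC4, an arrestin that removes glucose carriers from the surface (-0.45), and SGK1, a kinase that acts on several carriers (-0.34). With training averaged over arteries, 1 of the 19 passed, against 4.68% of all probe sets. It was FXYD5, a regulator of the sodium pump (0.38, adjusted p = 0.0145).

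Several SLC genes varied far more between pigs of the same group than the rest. The SD within groups had a median of 0.19 over the 120 genes, and it was above 0.5 in 9 of them: SLC22A2 (1.33), SLC22A3 (1.08), SLC1A2 (0.89), SLC25A21 (0.73), SLC38A1 (0.59), SLC2A3 (0.59), SLC2A12 (0.59), SLC2A1 (0.52) and SLC25A33 (0.51). These genes were singled out after their values were seen. SLC22A2 and SLC22A3 are polyspecific carriers of organic cations such as monoamines. SLC22A2 had a minimum of 4.54, a median of 5.70 and a maximum of 9.40 in exercised mammary arteries, against 5.53, 6.79 and 10.73 in sedentary ones. The highest exercised value came from pig 14_3 and the highest sedentary one from pig 11_1. The same 2 mammary arrays held the highest smooth muscle marker means of their groups, 0.76 in the exercised and 0.91 in the sedentary pig.

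Within groups, 8 of these 9 genes followed the smooth muscle marker mean, the exception being SLC2A3. Of all probe sets 27.2% had a slope that passed. Because the 9 were picked for the same spread within groups that the slope is fitted to, their count cannot be weighed against that share. SLC22A3 was higher by 1.51 ± 0.12 for each unit of the marker mean, both on the log2 scale (adjusted p = 2.48e-11, limma), and SLC22A2 by 1.40 ± 0.22 (adjusted p = 1.51e-05). The glutamate importer SLC1A2 had a slope of 1.22 ± 0.11, and the mitochondrial oxodicarboxylate carrier SLC25A21 one of 1.11 ± 0.07 (adjusted p = 4.57e-13). The glucose carriers SLC2A12 and SLC2A1 had slopes of 0.77 ± 0.09 and 0.70 ± 0.08, and SLC38A1 had 0.68 ± 0.12. These 7 slopes passed in 15 of 15 fits that left out 1 pig, and in the earlier-dated and the later-dated pigs taken alone. The slope of SLC25A33, 0.31 ± 0.11, passed in 9 of 15 such fits and was 0.16 without pig 11_1.

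Over all members, 14 SLC genes had a positive and 24 a negative slope that passed, against 11.2% and 16% of all probe sets (27.2% in either direction), so the share was again near the background. Without pig 11_1 the counts were 10 and 12. They were 12 and 9 in the earlier-dated pigs, and 9 and 1 in the later-dated pigs. Negative slopes were smaller, the steepest being that of the monocarboxylate family member SLC16A13, singled out after its values were seen, at -0.35 ± 0.07. Of the 24, 7 belonged to nucleoside and nucleotide sugar carriers, a class of 14 among the 120 genes. No SLC gene had a slope on the macrophage mean that passed by limma, against 0.129% of all probe sets (0.125% positive and 0.00417% negative), while 6 had an unadjusted p under 0.05.

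The smooth muscle marker mean did not pass between training groups, although 12 of its 12 markers had a negative training change in each artery, with medians of -0.25 in the brachial and -0.32 in the mammary artery. Brachial arteries had a mean of 0.08 ± 0.64 in exercised pigs, against 0.31 ± 0.72 in sedentary pigs (SD, n = 7 each), and mammary arteries had -0.32 ± 0.58 in exercised pigs, against -0.02 ± 0.53 in sedentary pigs (SD, n = 8 and 7), with adjusted p of 0.882 and 0.779 by exact permutation tests. With this mean as a covariate, the changes of SLC22A2 with training were -0.67 ± 0.44 in the brachial and -0.77 ± 0.43 in the mammary artery, against -0.99 ± 0.67 and -1.19 ± 0.65 without it, and none passed. Between arteries 6 of the 9 genes, which had been picked for their spread, passed with the covariate and did not pass without it. With it 82 of the 120 SLC genes and 14253 of all 23999 probe sets differed, against 65 and 13026 without it. The marker mean itself did not pass between arteries (exact permutation test, adjusted p = 0.636), and its markers differed unevenly. DES (2.11), MYL9 (1.21) and CNN1 (0.82) passed as higher in the brachial artery, MYLK (-0.87) as lower, and 8 of the 12 did not pass. The covariate therefore does not stand for smooth muscle content alone between arteries. SLC22A2 was lower in the brachial artery by -1.30 ± 0.25 with the covariate (adjusted p = 7.25e-05), against -0.79 ± 0.40 without it (adjusted p = 0.0997). SLC22A3 was lower by -0.97 ± 0.13 with it and -0.42 ± 0.35 without. SLC2A1 was lower by -0.60 ± 0.09 with it and -0.35 ± 0.17 without. SLC1A2, SLC38A1 and SLC2A12 were lower by -0.58 ± 0.13, -0.54 ± 0.14 and -0.33 ± 0.11 with it. SLC7A1 had a slope of 0.02 ± 0.08, and its brachial training change was -0.64 ± 0.16 with the covariate (adjusted p = 0.0231).

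**Figure D5:**
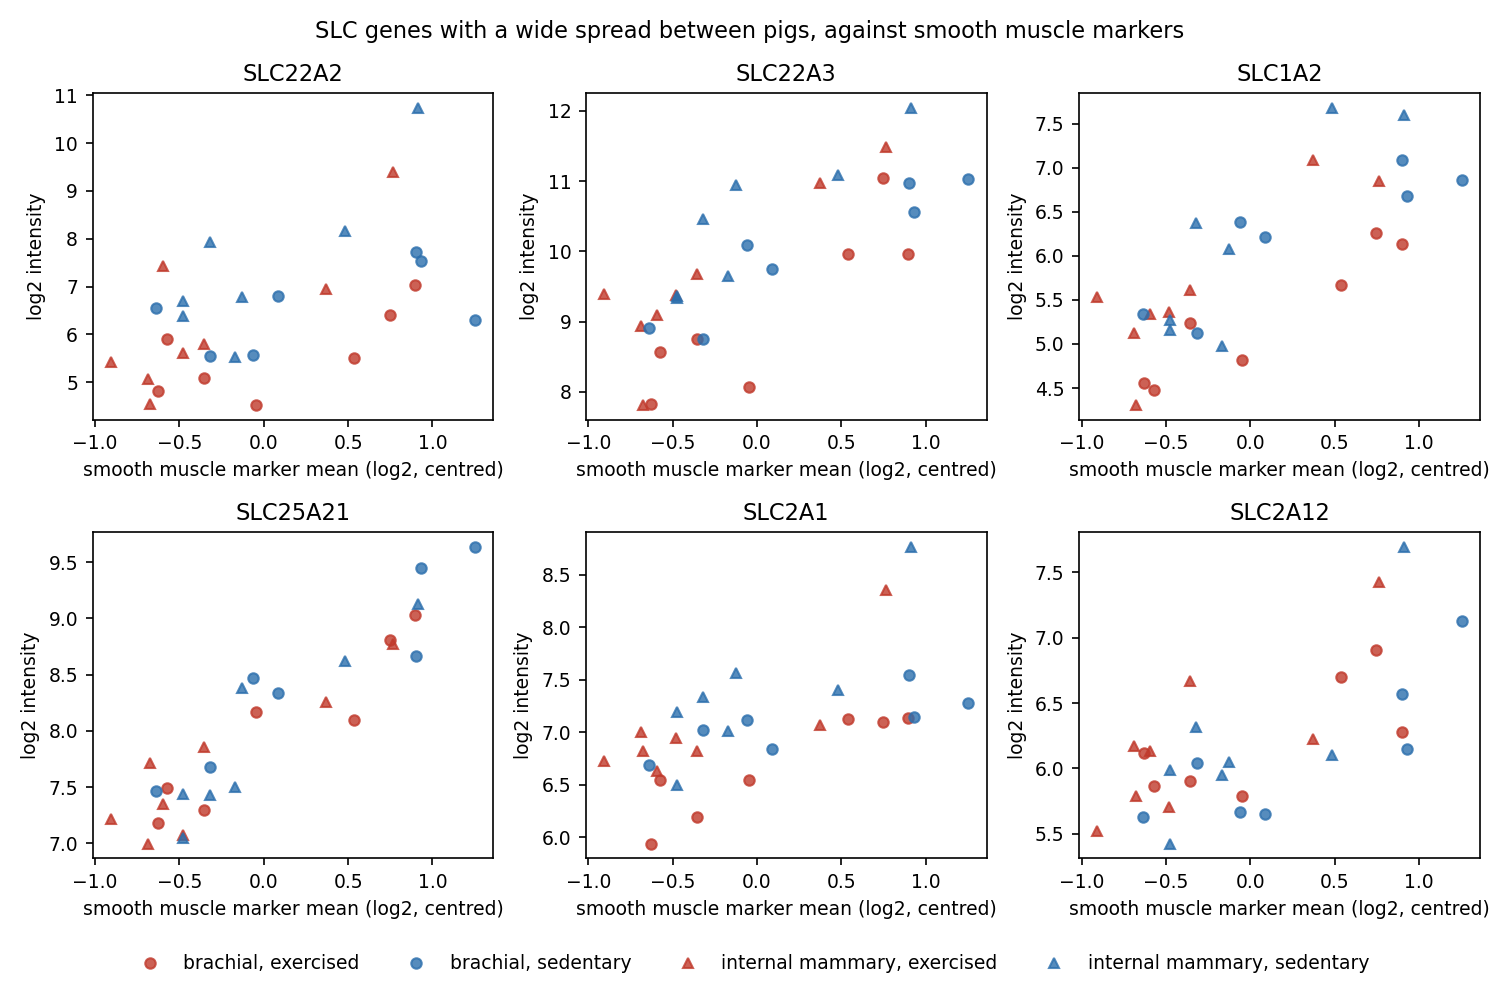
Log2 intensity (vertical axes) of 6 SLC genes with a wide spread between pigs against the mean of 12 smooth muscle markers (log2, centred over all arrays, horizontal axes). Circles are brachial and triangles mammary arteries, with exercised in red and sedentary in blue. Levels climb with the marker mean in both arteries, by 1.51 per unit for SLC22A3 and 0.70 per unit for SLC2A1.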

How the data were processed

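The values were the authors' deposited log2 intensities per probe set, computed with affy per the submitters' processing notes. The version, the probe summary, the background correction and the normalization are not given in the sources used here. Array medians lay between 7.13 and 7.28, and 124 control probe sets of 24123 were left out. The 29 arrays were fitted with limma 3.58.1 in R 4.3.3 as 4 group means with the pig as a random replicate block (consensus correlation 0.255), and p values were adjusted over 23999 probe sets with a threshold of 0.05. The pairing comes from the pig identifiers in the labels: residuals of a pig's 2 arteries had a median correlation of 0.190, against -0.023 between pigs, and the own pair was the highest in 7 of 14. Gene symbols came from the platform annotation, and 118 of the 120 genes matched RefSeq by gene identifier. Marker means were compared by exact permutation tests, by sign flips for paired arteries. The members, the lists and the tests were chosen with earlier results of these data known. Genes named are those that passed with training, those with the largest differences between arteries, a list of endothelial transporters (12 of 22 measured) and those with the smallest p values in each training test, while other genes are said to have been singled out after their values were seen. The fitting code was tested on simulated data. The alternatives were other block settings, normalizations, filters, covariates, date ranges and probe set choices, and leaving out each pig.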

Additional observations from a re-analysis of the deposited data

Results flagged for a closer look

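In 14 of 204 groups of arrays, over 51 named genes, 1 pig stood apart from the rest of its group by Dixon's criterion, which chance meets in about 1 in 20 groups, and these fell in 11 genes. In SLC25A20 it was the exercised pig 12_5, at 9.89 in the brachial artery (others 8.99 to 9.24) and 9.79 in the mammary artery (others 8.77 to 9.20). In SLC31A2 it was the sedentary pig 12_3, at 8.98 in the brachial artery (others 7.63 to 8.12) and 8.54 in the mammary artery (others 7.92 to 8.15). The same pig had 10.73 for SLC1A5 in the mammary artery (others 10.02 to 10.31).

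Mammary SLC25A4 was 11.03 in the exercised pig 14_3 (others 10.50 to 10.75) and 11.21 in the sedentary pig 11_1 (others 10.34 to 10.67), and mammary SLC2A1 was 8.35 in pig 14_3 (others 6.63 to 7.06). These 2 arrays had the highest smooth muscle marker means of their groups, whose part in the values was not tested. SLC2A3 was 10.92 in the brachial artery of the exercised pig 10_1 (others 9.11 to 9.89), and SLC3A1 was lowest in its mammary artery, at 9.21 (others 9.61 to 9.83).

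The exercised pig 12_2, with a mammary array alone, had 8.87 for SLC11A1 (others 7.89 to 8.25). The sedentary pig 13_2 had 5.47 for SLC28A1 (others 5.14 to 5.28) and 7.55 for SLC45A3 (others 7.16 to 7.30) in the mammary artery. SLC6A8 was 7.60 in the brachial artery of the exercised pig 11_3 (others 6.94 to 7.19).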

How the results depend on the processing

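The brachial training count of 2 genes was 0 with no replicate block, 1 with the replicate block as a fixed term, 1 after each array was centred again, 4 with the smooth muscle mean and 0 with the macrophage mean as a covariate, 0 in the earlier-dated pigs, 0 in the later-dated pigs and 0 to 4 when 1 pig was left out. The mammary count of 0 was 1 with array weights (SLC31A2), 1 when the 28S/18S ratio was added to the fit (SLC38A1) and 0 to 1 when 1 pig was left out. For all probe sets the brachial count was 17 with the macrophage covariate, against 1.63% of 23999 in the main fit. For all probe sets the mammary count was 143, 337 with array weights, 273 with the ratio and 35 to 291 without 1 pig. The averaged count of 7 was 14 with no replicate block and 1 in the fit of pig means over both arteries (SLC38A1, none of the 7). It was 1 with the macrophage covariate, 1 in the earlier-dated and 0 in the later-dated pigs, and 2 to 10 when 1 pig was left out. Over all probe sets the averaged count was 1123, 1996 with no block, 364 in the fit of pig means and 414 with the macrophage covariate. It was 252 in the earlier-dated and 28 in the later-dated pigs, and 705 to 1223 when 1 pig was left out. The interaction count was 0 in every setting run. The artery count of 65 was 39 in the later-dated pigs and 50 to 82 in the other settings run. One of the settings with 50, without the dimmest tertile, had 32 SLC genes fewer to test. Over all probe sets the artery count of 13026 was 8596 in the later-dated and 9012 in the earlier-dated pigs. It was 8981 of 15999 without the dimmest tertile, and 14253 with the smooth muscle covariate, which gave the 82. The cause of these changes was not tested, and the dated subsets differ from the main fit both in dates and in holding fewer pigs. Cyclic loess and the marker slopes were added after the data were seen.

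Signs turned in SLC25A4 between arteries with the smooth muscle covariate (-0.119, adjusted p = 0.0309), and with the lowest probe set of each gene in SLC11A2 with training (0.0936) and, between arteries, in SLC1A1 (-0.0076), SLC4A4 (0.0173) and SLC25A33 (0.128). A further 103 of 3222 values changed sign while passing in neither setting. Of the 39 genes with several probe sets, 17 had differences between arteries of mixed sign, and 4 passed in both directions (SLC11A2, SLC25A14, SLC38A1 and SLC44A2). Signal over background is not given with these values, so it is unknown which dim probe sets lay above it.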
